A study of Mus musculus with 4 samples.

Results

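The genes described here encode heat shock proteins, chaperonins and their direct helpers: the Hsp70 and Hsp110 families, cytosolic Hsp90, the mitochondrial Hsp60 and Hsp10 chaperonin, the cytosolic CCT chaperonin, small heat shock proteins, J-domain (DNAJ) proteins, BAG cochaperones and the heat shock factors Hsf1 and Hsf2. Members were chosen by gene symbol alone, leaving out Hspa5, and 83 of the 16613 symbols in the files matched. RNA-seq was done on GFP+ cells recovered from the bone marrow of recipients, to which B220+ marrow cells transduced with N-myc had been transferred. These are labelled N-myc-induced B-ALL cells, a mouse model of acute lymphoblastic leukaemia of B cells, on the C57BL/6 strain. Both groups carry the introduced N-myc. One group of 2 libraries came from Anp32b+/+ (wild type) donor cells and the other group of 2 from Anp32b-/- (knockout) donor cells. Age, sex and pooling of animals are not in the labels, nor is it said that each library is its own animal. The p-values therefore reflect the spread among these 4 samples, which may be technical.

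Molecular chaperones bind unfolded or partly folded proteins and help them reach or regain their fold. Hsp70 proteins do so in cycles of ATP hydrolysis that J-domain proteins start and that nucleotide exchange factors, among them the BAG and Hsp110 proteins, end by releasing ADP. Hsp90 acts later on kinases and steroid receptors, whereas CCT and Hsp60 enclose their clients in a barrel. The transcription factor HSF1 induces many of these genes on heat or other protein damage by binding heat shock elements, which are repeats of the letters GAA in alternating orientation.

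The libraries held 19581575 to 19758671 estimated reads. Anp32b itself was at 774 and 853 CPM (read counts scaled to library size with TMM factors) in wild type and 74.4 and 70.6 CPM in knockout. The B lineage label was checked on 11 markers, which summed to 7190 and 7125 CPM in wild type and 6572 and 6628 CPM in knockout. Of these 1 rose and 5 fell. Markers of other cells differed between the genotypes: 14 of 15 neutrophil genes fell (summed level 639 and 650 CPM in wild type, 129 in each knockout library), as did 4 of 8 tested of 10 monocyte genes (91.8 and 88.7 CPM against 33.4 and 35.6). None of 8 erythroid genes and 2 of 4 tested T cell genes were called. All 4 Y-linked genes in the files fell as well, with a sum of 156 and 173 CPM in wild type and 42.5 and 41.7 CPM in knockout. As the labels do not give the sex of donors or recipients, a difference in sex between the groups and the genotype cannot be told apart in any comparison below. Among 12 immediate early genes, which respond to handling as well as to growth signals, 5 rose and 2 fell, with a sum of 1813 and 1702 CPM in wild type and 2314 in each knockout library. Of the T cell receptor genes, Cd3e had 2 and 4 reads in wild type and 0 in each knockout library. Cd3d had 5.03 and 3.95 reads against 3 and 2.88, and Cd3g had 1 and 7 against 0 and 3. These counts were too low to be tested, and Cd247 was not called (0.05). The part of these cells or signals in the results below was not tested. In bulk RNA, fewer cells of a type and less RNA per cell cannot be told apart.

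Of the 83 members, 76 passed the filter on low counts and 7 did not (Cct6b, Dnajb7, Dnajc22, Dnajc5b, Hspb1, Hspb7 and Hspb9). By edgeR's quasi-likelihood test at an adjusted p under 0.05 over all 12123 tested genes, 9 members rose in knockout and 5 fell. These are 18.4% of the tested members, against 23.6% of all tested genes (10.9% higher and 12.6% lower). The genes that rose were Hsf1, Hspa8, Hspa12a, Bag2, Bag3, Dnajb4, Dnajb9, Dnajc6 and Dnajc9, and those that fell were Hspa1a, Hspa1b, Hspa4l, Hspb8 and Dnajb5. The median log2 fold change of the tested members was 0.01, and that of all tested genes was 0.0021. The median size of the change, sign aside, was 0.10 for the members and 0.14 for all tested genes. For 38 of the 76 the libraries of the genotypes did not overlap (50%; 24 higher and 14 lower in knockout), which held for 60.5% of all tested genes (30% higher and 30.5% lower). Of the 62 members that were not called, 46 had a 95% interval, taken gene by gene, within 0.32 of 0 on the log2 scale.

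**Figure D1:**
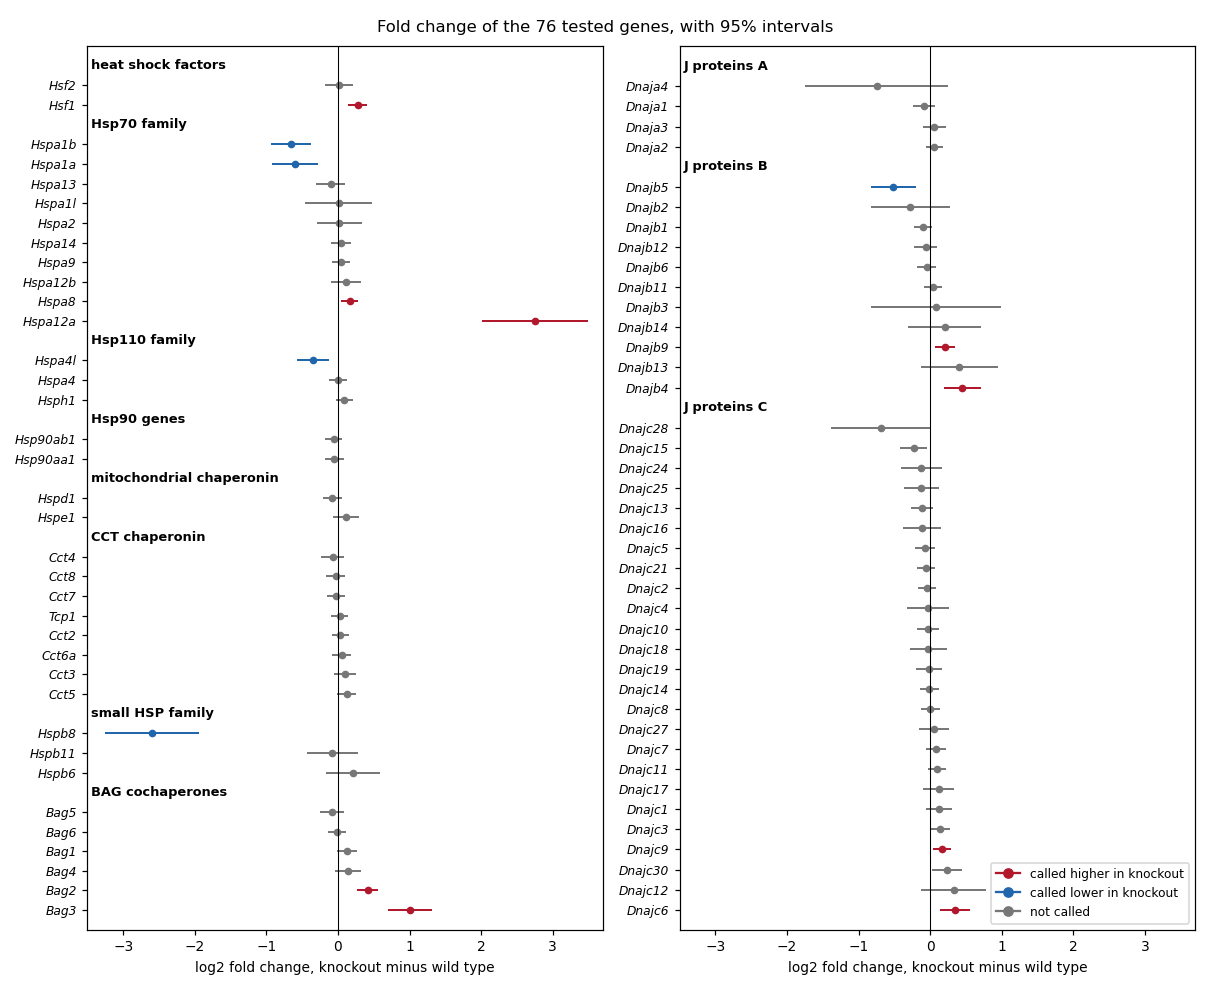
Log2 fold change (knockout minus wild type) of the 76 tested members by family, points with 95% intervals from edgeR, coloured by call. Most points lie near 0 with short intervals, Hspa12a (2.76) and Hspb8 (-2.59) lie farthest out, and no CCT, Hsp90 or Hsp60 and Hsp10 gene was called.

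As a whole the family made up 2.20% and 2.26% of the reads in the wild-type libraries and 2.24% and 2.27% in the knockout libraries. Hspa8 and Hsp90ab1 alone supplied 47.3% to 48.9% of these reads. Hspa8 had rank 3 and Hsp90ab1 rank 5 among all symbols by CPM in both genotypes. Per length of transcript, Hspa8 (2654 CPM per kilobase in wild type) and Hsp90ab1 (1881) had the highest levels. Tcp1 (525) and Cct2 (461) came next, on median transcript lengths of 1290 and 1298 bases. Hsp90aa1 (429) followed on 3066.5 bases, so the order after Hsp90ab1 depends on the lengths used. Hspb1, which encodes the heat-inducible small heat shock protein Hsp25, was among the members with few reads. It had 2, 2, 3 and 4 reads in the wild-type and knockout libraries and was not tested. Of the 50-base words of its transcripts, 48.8% also occur in the pseudogene Hsp25-ps1, so its count is uncertain.

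Of the 2 heat shock factor genes 1 was called, where 23.6% of all tested genes were. Whether their changes differ from each other was not tested. Hsf1 (chromosome 15, 76477362 to 76501155 in GRCm38), the main activator of the heat shock response, was at 87.8 and 88.1 CPM in wild type and at 103 and 110 CPM in knockout. Both knockout libraries lay above both wild-type libraries, and Hsf1 rose 1.21-fold (log2 fold change 0.27, SE 0.06, edgeR adjusted p = 0.00229). Without knockout replicate 2 it was not called (0.23, adjusted p = 0.135). Hsf2, a related factor that can form mixed trimers with HSF1, was at 21.4 and 20.4 CPM in wild type and 22.1 and 20.3 CPM in knockout. Its groups overlapped and it was not called (0.02, 95% interval -0.16 to 0.20, adjusted p = 0.909). HSF1 is largely controlled after translation, which these counts do not measure.

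Stress-inducible Hsp70 RNA was lower in the knockout libraries. Hspa1a and Hspa1b encode the classic inducible Hsp70 and lie on chromosome 17 (GRCm38) at 34969359 to 34972156 and 34956429 to 34959238. Hspa1a was at 7.02 and 7.47 CPM in wild type and at 4.78 and 4.79 CPM in knockout. Hspa1b was at 13.4 and 15.7 CPM in wild type and at 10.2 and 8.30 CPM in knockout. For both genes each knockout library lay below each wild-type library. Hspa1a fell 1.51-fold (log2 fold change -0.60, SE 0.14, edgeR adjusted p = 0.00757) and Hspa1b 1.57-fold (-0.65, SE 0.12, adjusted p = 0.00153). The deposited values of this pair are not whole numbers, and 60.4% of the 50-base words of Hspa1a transcripts also occur in other genes' transcripts, as do 62.3% of those of Hspa1b, so the split of reads between them is uncertain. Their sum does not depend on that split: it was 20.4 and 23.2 CPM in wild type and 14.99 and 13.1 CPM in knockout. Without knockout replicate 2 neither gene was called (adjusted p = 0.0906 for Hspa1a and 0.0887 for Hspa1b), and Hspa1a was also not called without knockout replicate 1 (0.0594). Hspa1l, the neighbouring gene with mainly testis expression, was at 2.88 and 3.17 CPM against 3.39 and 2.71 CPM and was not called (adjusted p = 0.981).

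For the inducible pair, the 250 bases before each start in RefSeq (GRCm38.p6, minus strand) are shown. Capitals mark the only exact match to GAANNTTC, a pair of heat shock element units facing each other. Units with a changed base were not searched for and are not marked. Whether these stretches bear on the fall of both genes was not tested. The stretches are at chr17:34972157-34972406 and chr17:34959239-34959488.
Hspa1a: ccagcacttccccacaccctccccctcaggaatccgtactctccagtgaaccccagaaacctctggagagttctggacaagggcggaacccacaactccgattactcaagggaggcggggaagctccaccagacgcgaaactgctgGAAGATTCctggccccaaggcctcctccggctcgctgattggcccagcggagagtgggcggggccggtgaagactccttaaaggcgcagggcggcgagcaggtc
Hspa1b: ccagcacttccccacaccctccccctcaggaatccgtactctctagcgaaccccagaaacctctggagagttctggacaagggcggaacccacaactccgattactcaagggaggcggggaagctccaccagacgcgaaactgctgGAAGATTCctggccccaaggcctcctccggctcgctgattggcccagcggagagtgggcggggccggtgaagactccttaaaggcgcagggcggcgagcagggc
The stretches are 98.8% identical and differ at 3 positions (C44T, T47C and T249G, Hspa1a first, counted from 1 at the 5′ end), none of them in the capitals. The match starts 104 bases before the annotated start in both.

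Among the constitutive Hsp70 genes, Hspa8 was slightly higher in the knockout libraries and Hspa9 was not called. Hspa8 (chromosome 9, 40801276 to 40805202), which encodes the constitutive cytosolic Hsc70, was at 5803 and 5908 CPM in wild type and 6470 and 6660 CPM in knockout. Each knockout library lay above each wild-type library. Hspa8 rose 1.12-fold (0.16 on the log2 scale, SE 0.05), with an edgeR adjusted p = 0.0255 that became 0.222 without knockout replicate 1, 0.367 without knockout replicate 2 and 0.0627 with upper-quartile normalization. In addition 67.3% of its 50-base transcript words recur in transcripts of other genes, mostly the pseudogene Gm15459, so part of its count may be shared. Its deposited values were whole numbers. Hspa9, the Hsp70 of the mitochondrial matrix, was at 660 and 673 CPM in wild type and 678 and 697 CPM in knockout and was not called (0.04, 95% interval -0.06 to 0.15, adjusted p = 0.586).

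Hspa12a had the highest fold change of the members. It encodes an atypical, distant relative of Hsp70, lies on chromosome 19 at 58795750 to 58943672, and had 6 and 10 reads in wild type and 56 and 51 in knockout, that is 0.301 and 0.504 CPM against 2.87 and 2.63 CPM. Hspa12a rose 6.75-fold (log2 fold change 2.76, SE 0.34, edgeR adjusted p = 3.33e-05), and it was called in each leave-out of a library (2.44 to 3.16). None of its 50-base words recur in transcripts of other genes. The annotated gene Eno4 overlaps it and was not called (0.36, adjusted p = 0.582). The paralogue Hspa12b was at 17.1 and 15.3 CPM against 17.5 CPM in each knockout library and was not called (0.11, adjusted p = 0.431). Of the other Hsp70 members, Hspa2, Hspa13 and Hspa14 were not called either, with log2 fold changes from -0.10 to 0.04.

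Hsp110 proteins are exchange factors for Hsp70. Of their 3 genes 1 was called, where 23.6% of all tested genes were. Hspa4l was at 15.9 and 16.3 CPM in wild type and 13.3 and 12.1 CPM in knockout. Its groups did not overlap and it fell 1.27-fold (log2 fold change -0.34, SE 0.10, edgeR adjusted p = 0.0196), and without knockout replicate 2 it was not called (adjusted p = 0.227). Hsph1, the heat-inducible member, was at 199 and 201 CPM against 212 and 214 CPM and was not called (0.09, adjusted p = 0.235). Hspa4 was at 452 and 468 CPM against 469 and 454 CPM (0.0034, 95% interval -0.11 to 0.11, adjusted p = 0.971).

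Neither cytosolic Hsp90 gene was called. Hsp90ab1, the constitutive form, was at 4726 and 4753 CPM in wild type and 4484 and 4604 CPM in knockout, with no overlap (-0.06, 95% interval -0.17 to 0.04, adjusted p = 0.415). Hsp90aa1, the inducible form, was at 1264 and 1366 CPM in wild type and 1271 and 1268 CPM in knockout, within the wild-type range (-0.05, 95% interval -0.17 to 0.06, adjusted p = 0.545). Per kilobase the level of Hsp90ab1 was 4.55 and 4.23 times that of Hsp90aa1 in wild type and 4.29 and 4.42 times in knockout. Of the 50-base words of Hsp90aa1, 50.1% recur in other transcripts, against 4.13% for Hsp90ab1.

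**Figure D2:**
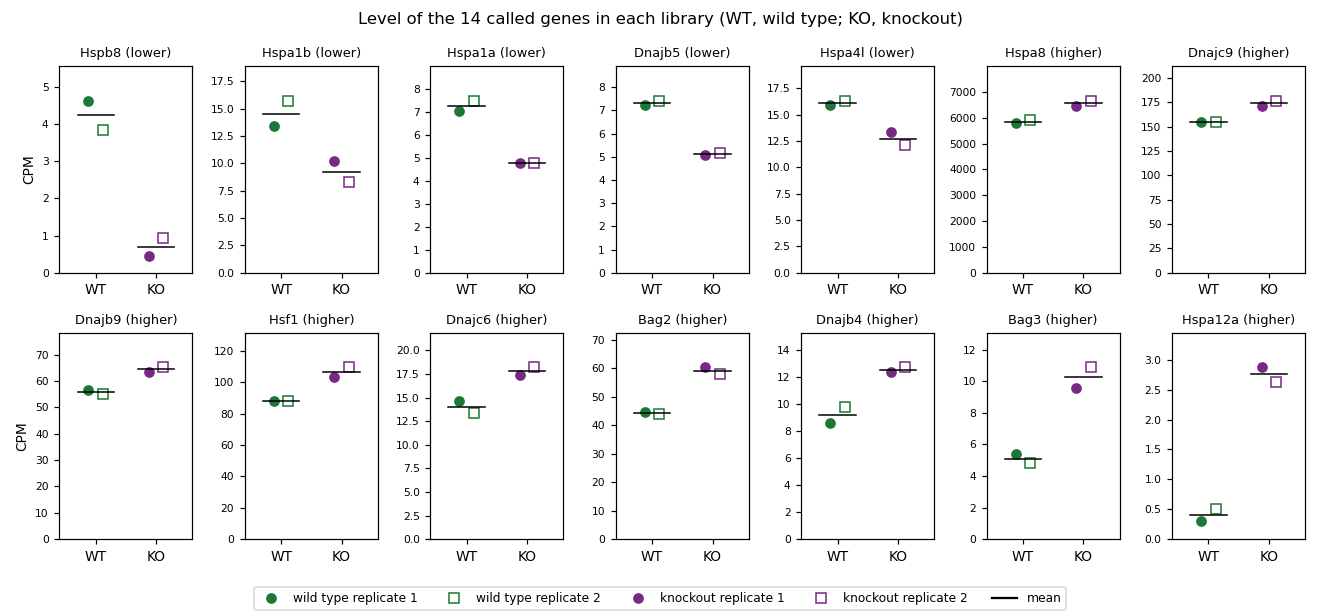
CPM of the 14 called members in each library, 1 panel per gene with an axis from 0, ordered by log2 fold change, with bars at the mean of 2 libraries. In each panel the knockout libraries lie on one side of the wild-type libraries, widely for Hspb8 and Hspa12a and narrowly for Hspa8 and Dnajc9.

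The small heat shock proteins hold unfolded proteins without using ATP. Hspb8 (chromosome 5, 116408491 to 116422864), which works with BAG3 in the disposal of misfolded proteins by autophagy, had 92 and 76 reads in wild type and 9 and 18 in knockout, or 4.62 and 3.83 CPM against 0.462 and 0.929 CPM. It fell 6.03-fold (-2.59 on the log2 scale, SE 0.30, edgeR adjusted p = 1.75e-05), the lowest fold change of the tested members, and was called in each leave-out (-3.18 to -2.17). A long noncoding gene that is not analysed here overlaps it. Hspb6 and Hspb11, the other tested genes with an Hspb symbol, were not called (0.21, adjusted p = 0.426, and -0.08, adjusted p = 0.762). Such genes were grouped by symbol alone. Hspb9 had 7 reads in each wild-type library and 4 and 0 in knockout. Hspb7 had at most 2.27 reads in a library.

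The BAG genes code for exchange factors and adaptors of Hsp70, and 2 of the 6 rose, where 10.9% of all tested genes did. Bag3 (chromosome 7, 128523583 to 128546981), the partner of HSPB8 and itself inducible by heat, was at 5.37 and 4.84 CPM in wild type and 9.60 and 10.9 CPM in knockout. Both knockout libraries lay well above both wild-type libraries, and Bag3 rose 2.01-fold (log2 fold change 1.00, SE 0.14, edgeR adjusted p = 8.05e-05). Bag3 reads thus were 1.16 and 1.26 times those of Hspb8 in the wild-type libraries and 20.8 and 11.7 times in the knockout libraries. Bag2 (chromosome 1, 33745484 to 33757750), which inhibits the ubiquitin ligase CHIP, was at 44.8 and 44.0 CPM in wild type and 60.4 and 58.0 CPM in knockout, and rose 1.33-fold (0.41, SE 0.06, adjusted p = 2.27e-04). Both genes were called in each leave-out (Bag3 0.91 to 1.10, Bag2 0.39 to 0.44). Bag1, Bag4, Bag5 and Bag6 were not called, with log2 fold changes from -0.08 to 0.14. Bag1 was called higher without wild-type replicate 2 (0.17, adjusted p = 0.0278).

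CCT, also named TRiC, folds actin and tubulin inside stacked rings of 8 different subunits. Against 23.6% of all tested genes, none of the 8 tested CCT genes was called. Their log2 fold changes ran from -0.08 (Cct4) to 0.12 (Cct5), with a median of 0.03, and for all 8 the 95% interval lay within 0.32 of 0. Cct4 was at 366 and 429 CPM in wild type and 374 and 380 CPM in knockout, inside the wild-type range (adjusted p = 0.454). Cct5 was at 542 and 569 CPM in wild type and 581 and 627 CPM in knockout, above the wild-type range (adjusted p = 0.138). Tcp1, which encodes the first subunit, was at 665 and 689 CPM against 690 and 688 CPM (0.02, 95% interval -0.08 to 0.13, adjusted p = 0.777). The wild-type libraries themselves lay apart, with a sum of the CCT genes of 4035 and 4352 CPM, and the knockout sums of 4238 and 4320 CPM fell between them. Leaving out a wild-type library made calls in either direction: Cct4 was called lower without replicate 1 (-0.19, adjusted p = 0.00187), and Cct3 (0.21, adjusted p = 0.0014), Cct5 (0.15, adjusted p = 0.026) and Cct6a (0.12, adjusted p = 0.040) were called higher without replicate 2. Per kilobase, the 7 subunit genes with a GENCODE coding transcript spanned a 2.56 to 2.94-fold range within a library, from Cct4 (178 to 209 CPM per kilobase) to Tcp1 (516 to 535). The width of this range depends on the median lengths used, 2059 bases for Cct4 and only 1290 for Tcp1. Not scaled to length, Cct4 was at 366 to 429 CPM and Tcp1 at 665 to 690 CPM. Cct6b, a testis form of the subunit made by Cct6a, had 5 and 1 reads in wild type and 4 and 5 in knockout.

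**Figure D3:**
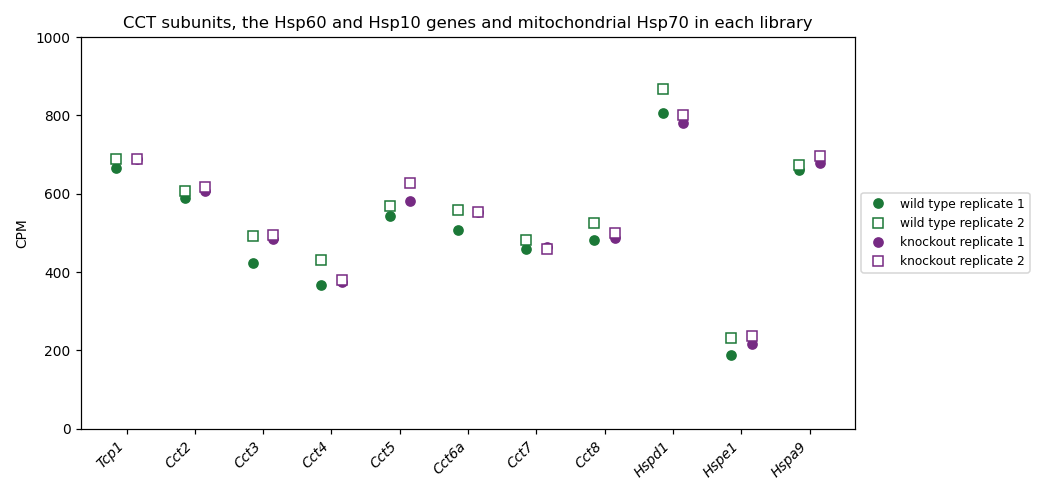
CPM of the 8 tested CCT subunit genes, Hspd1, Hspe1 and Hspa9 in each library, on an axis from 0. Wild-type replicate 2 lies above wild-type replicate 1 for each gene, and the knockout libraries mostly lie between or beside them.

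The mitochondrial chaperonin genes Hspd1 (Hsp60, the barrel) and Hspe1 (Hsp10, its lid) stand head to head on chromosome 1, at 55077833 to 55088243 and 55088148 to 55091317, and share a promoter. Hspd1 was at 805 and 868 CPM in wild type and 781 and 802 CPM in knockout (-0.08, 95% interval -0.20 to 0.04, adjusted p = 0.322). Hspe1 was at 188 and 231 CPM in wild type and 216 and 237 CPM in knockout (0.11, 95% interval -0.06 to 0.28, adjusted p = 0.350). Neither was called, but Hspd1 was called lower without wild-type replicate 1 (-0.13, adjusted p = 0.0195) and Hspe1 higher without wild-type replicate 2 (0.27, adjusted p = 0.00144). Of their 50-base words, 39.7% and 36.1% recur in transcripts of other genes, largely pseudogenes. The stretch in their common promoter is shown because it holds a run of heat shock element letters, read here on the plus strand at chr1:55088053-55088082 (RefSeq, GRCm38.p6). In GENCODE vM21 it also lies in the first exon of a longer Hspd1 transcript.
Hspe1 and Hspd1: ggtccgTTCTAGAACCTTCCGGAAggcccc
Capitals mark 2 overlapping matches, 1 on each strand, to the letters GAANNTTC followed after any 2 bases by a further GAA. They start 89 and 84 bases before the Hspe1 start.

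Heat shock element letters were then counted in the promoter windows of all members in the RefSeq table (67 of 83, from 250 bases before to 50 after each start, both strands). The longer motif, GAANNTTC followed after any 2 bases by GAA, stood in 4 of the 67 (Dnajb6, Hspd1, Hspe1 and Hsph1), or 5.97%, against 0.577% of the 13176 genes of the files with a window. The shorter GAANNTTC, which also lies inside the longer motif, stood in 14 of 67 members (20.9%) and 7.55% of these genes. The pair in the other order, TTCNNGAA, lies inside the longer motif too. It stood in 8 of 67 members (11.9%) and 8.42% of these genes. Members are not all separate sites, as Hspd1 and Hspe1 hold the same stretch and those of Hspa1a and Hspa1b are near-identical. Of 11 members usually given as HSF1 targets with a window, 8 held GAANNTTC: Hspa1a, Hspa1b, Hsph1, Hspd1, Hspe1, Hspb1, Dnaja1 and Bag3 (in Bag3 42 bases after the start, and in Hsph1 20 and 41 bases after its 2 annotated starts). Of those 8, Hspa1a and Hspa1b fell, Bag3 rose, Hspb1 was not tested and the other 4 were not called. The share called among all tested genes was 23.6%. TTCNNGAA stood in 4 of the 11: Dnajb4, which rose, and Hsph1, Hspd1 and Hspe1, which were not called. Hspa8, Hsp90aa1 and Hsp90ab1, also usually given as HSF1 targets, had no window. These matches are exact letters in a window, not measured binding. Elements with a changed base were not counted, so a gene without a match may still hold such an element.

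A list of 14 members usually given as HSF1 targets held Hspa1a, Hspa1b, Hspa8, Hsp90aa1, Hsp90ab1, Hsph1, Hspd1, Hspe1, Hspb1, Hspa4l, Dnaja1, Dnajb1, Dnajb4 and Bag3. It includes Hspa8 and Hsp90ab1, whose main expression is constitutive. Of the 13 tested, 3 rose (Hspa8, Dnajb4 and Bag3) and 3 fell (Hspa1a, Hspa1b and Hspa4l), or 46.2%, against 23.6% of all tested genes. For 76.9% of the 13 the libraries did not overlap, against 60.5% of all. The median log2 fold change was -0.06, and the 7 tested genes that were not called lay between -0.10 and 0.11. The list was chosen with earlier results of these data known, and its counts are a description. Dnaja1 and Dnajb1, the main cytosolic J partners of Hsp70, were among the genes not called. Dnaja1 was at 280 and 323 CPM in wild type and 284 and 283 CPM in knockout (-0.09, adjusted p = 0.356), and was called lower without wild-type replicate 1 (-0.19, adjusted p = 0.00224). Dnajb1 was at 105 CPM in each wild-type library and 97.9 and 98.3 CPM in knockout, without overlap, and was not called (-0.10, 95% interval -0.21 to 0.01, adjusted p = 0.191).

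J-domain proteins hand clients to Hsp70 and start its ATPase. Of 43 genes, 40 were tested, 4 rose and 1 fell (12.5% called, against 23.6% of all tested genes), with a median log2 fold change of -0.01. Dnajb4, a cytosolic, heat-inducible relative of Dnajb1, was at 8.58 and 9.73 CPM in wild type and 12.3 and 12.7 CPM in knockout, and rose 1.37-fold (0.45, SE 0.11, edgeR adjusted p = 0.00934). It overlaps the abundant gene Fubp1 (not called, -0.01), and the strand of counting is not given. Dnajb5, also a class B cytosolic J protein, was at 7.23 and 7.41 CPM in wild type and 5.08 and 5.16 CPM in knockout, and fell 1.43-fold (-0.51, SE 0.14, adjusted p = 0.0157). Dnajc6, which encodes auxilin, the helper of Hsc70 in clathrin uncoating, was at 14.6 and 13.4 CPM in wild type and 17.4 and 18.2 CPM in knockout, and rose 1.27-fold (0.35, SE 0.09, adjusted p = 0.0153). Dnajc9, a nuclear J protein and histone chaperone, was at 154 and 155 CPM in wild type and 171 and 176 CPM in knockout, and rose 1.12-fold (0.17, SE 0.05, adjusted p = 0.0282). Without knockout replicate 2 none of these 4 was called (adjusted p = 0.125 for Dnajb4, 0.118 for Dnajb5, 0.176 for Dnajc6 and 0.339 for Dnajc9). Without knockout replicate 1 the calls of Dnajb5 (0.102), Dnajc6 (0.0602) and Dnajc9 (0.168) were lost as well, and Dnajc6 was not called without wild-type replicate 2 (0.0636). Dnajc15, a mitochondrial import J protein at 35.1 and 40.7 CPM against 32.5 and 32.1 CPM, lay next to the threshold (-0.23, adjusted p = 0.0502) and was named after its value was seen. It was called lower in 3 of the 9 alternative fits, with an adjusted p of 0.0297 under upper-quartile normalization, 0.0154 with the replicate block and 0.00220 without wild-type replicate 1, and its adjusted p reached 0.327 without knockout replicate 2. The J genes that were not called ran from -0.75 (Dnaja4) to 0.41 (Dnajb13), both below 3 CPM in each library and with 95% intervals from -1.73 to 0.23 and from -0.12 to 0.93, so changes of that size were not resolved at this depth.

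J proteins and Hsp70 of the endoplasmic reticulum (ER) serve secreted and membrane proteins, and many are induced by the unfolded protein response. Of 7 such members, 1 rose and none fell (14.3% called, against 23.6% of all tested genes). Dnajb9, which encodes ERdj4, was at 56.7 and 55.2 CPM in wild type and 63.5 and 65.2 CPM in knockout, and rose 1.15-fold (0.20, SE 0.06, edgeR adjusted p = 0.0235). Leaving out knockout replicate 1 gave an adjusted p = 0.133, and leaving out replicate 2 gave 0.263. The others, Hspa13, Dnajb11, Dnajc1, Dnajc3, Dnajc10 and Dnajc25, had log2 fold changes from -0.12 to 0.14, and Dnajc3 was called higher without wild-type replicate 2 (0.18, adjusted p = 0.0321).

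**Figure D4:**
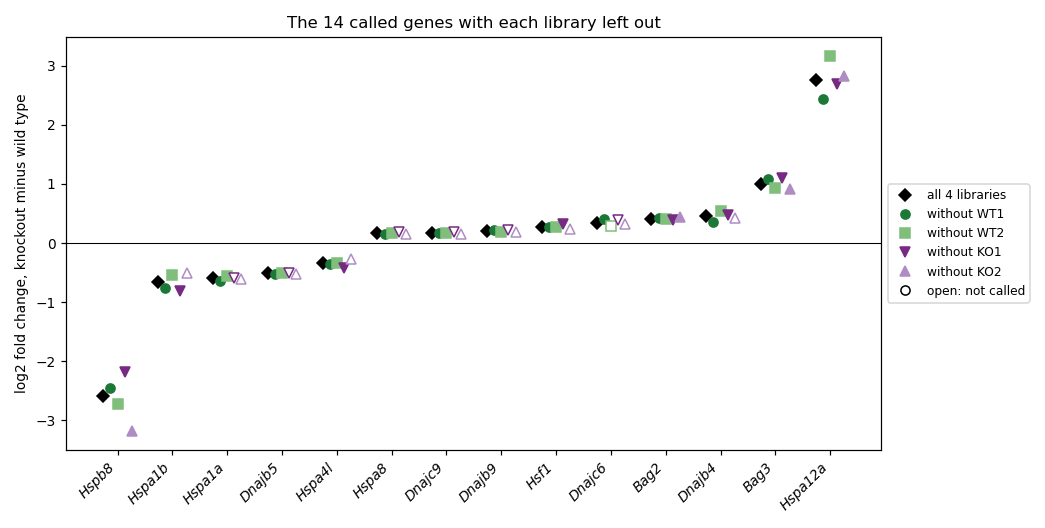
Log2 fold change (knockout minus wild type) of the 14 called members with all 4 libraries and with each library left out, filled where called and open where not. All signs stayed the same, and Hspb8, Bag2, Bag3 and Hspa12a were filled throughout.

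Hspb8, Hspa12a, Bag2 and Bag3 were called in all 9 alternative fits, which changed the normalization, the filter, the tool, the replicate block or the libraries. Across those 9 fits the adjusted p of Hsf1 ran from 1.20e-04 to 0.135 (called in 8) and that of Hspa1b from 2.64e-05 to 0.0887 (called in 7). Hspa1a ran from 0.00292 to 0.104, Hspa4l from 0.00833 to 0.227, Dnajb4 from 0.00239 to 0.125 and Dnajb5 from 0.00889 to 0.179, each called in 6. Hspa8 ran from 0.00344 to 0.367 and Dnajb9 from 0.0108 to 0.263, both called in 5. Dnajc6 ran from 0.00565 to 0.176 and Dnajc9 from 0.0116 to 0.339, both called in 4. DESeq2 called 7 of the 14, and did not call Dnajb4, Dnajb5, Dnajb9, Dnajc6, Dnajc9, Hspa1a or Hspa4l. With no filter on low counts, 7 were called again, and Dnajb4, Dnajb9, Dnajc6, Dnajc9, Hspa1b, Hspa4l and Hspa8 were not.

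Partners outside the symbol rule were read from lists. Of 24 Hsp90 and Hsp70 cochaperones in the files, 3 rose and none fell. Fkbp5, an Hsp90-binding immunophilin that glucocorticoids induce, was at 79.7 and 73.3 CPM in wild type and 151 and 147 CPM in knockout (0.97, SE 0.06, edgeR adjusted p = 2.39e-08). Hspbp1 (0.21) and Sgta (0.18), both regulators of Hsp70, rose as well. Of 14 prefoldin and CCT cofactor genes, which deliver or release CCT clients, 3 fell and none rose: the prefoldin subunits Vbp1 (wild type 87.6 and 101 CPM against 72.5 and 72.9 CPM, -0.37) and Pfdn5 (-0.18), and Pdcl (-0.28). Of 13 mitochondrial partners and proteases, the protease genes Clpp (wild type 55.7 and 57.1 CPM against 78.5 and 74.3 CPM, 0.44) and Htra2 (0.33) rose and none fell. Of 16 ER chaperone and unfolded protein response genes, 4 rose (P4hb 0.29, Pdia4 0.26, Hyou1 0.22 and Xbp1 0.19) and Ddit3 fell (-0.40), with Xbp1 and Ddit3 named after their values were seen. The shares called were 12.5%, 21.4%, 15.4% and 31.2% of these lists in turn, against 23.6% of all tested genes.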

How the data were processed

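The deposited values are an expected count (estimated count) of reads per gene symbol and library: the authors made them from sequencing reads before depositing them, and per the file headers each table holds 1 library. Of these values 64.5% to 65.6% were whole. HISAT2 2.0.4, DESeq2 1.4.5 and GRCm38 appear in the submitters' processing notes. For the counter, annotation and strand setting the status is: not given in the sources used here. Counts were rounded and tested with edgeR 4.0.16 (R 4.3.3): quasi-likelihood test, TMM factors, filterByExpr with a minimum count of 10, no covariate, Benjamini-Hochberg adjustment over 12123 tested genes, calls under 0.05. With 2 libraries in each group, the smallest p of an exact permutation test is 0.333. A count of 0 allows 3 reads, 0.152 to 0.153 CPM, for counting error only. Lengths are medians of GENCODE vM21 basic coding transcripts (82 of 83 members). Coordinates and promoters are from RefSeq, GRCm38.p6. The procedure was run on simulated counts with the same spread for all genes and with changes placed only in genes above a low level. That run does not bear on genes with few reads, such as Hspb8 and Hspa12a.

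Members and lists were chosen with earlier results of these data known. Named one by one are all called members and a set of main chaperones whatever their values (heat shock factors, inducible and constitutive Hsp70, Hspa9, Hsp90, Hsph1, Hsp60 and Hsp10, Hspb1, Dnaja1, Dnajb1, Bag3, Tcp1 and the extreme CCT subunits). In lists outside the rule, the called genes with the smallest 3 p-values are named. Alternatives were RLE and upper-quartile normalization, DESeq2 1.42.0, no filter, the replicate number as a block, and leaving out each library. In the last of these, the spread of the group with 1 library is taken from the other group.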

Additional observations from a re-analysis of the deposited data

How the results depend on the processing

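The counts of members that rose and fell (9 and 5) became 5 and 2 with DESeq2 and 4 and 3 with no filter on low counts, against 1323 and 1533 genes in all, 729 and 847 with DESeq2 and 547 and 744 with no filter. Over the fits that leave out a library, members higher ran from 3 (without knockout replicate 2) to 15 (without wild-type replicate 2), members lower from 1 to 9, genes higher from 372 to 1676 and genes lower from 579 to 1712. All of the 14 called members kept their sign in every alternative, and 4 kept their call. With the replicate number as a block, the counts were 9 and 6 members and 1644 and 1779 genes. The numbers were not shown to pair the libraries (correlation of same-numbered deviations 0.0472 over genes). Upper-quartile normalization gave 7 and 6 members, lowered the median of all tested genes to -0.028, and raised the share of calls that were lower from 53.7% to 63.0%. With it, the sign turned for 6 of the 76 members, none of them called, among them Hsf2 (-0.0126) and Tcp1 (-0.00567). When a library was left out it turned for 31 of the 76 in at least 1 fit, again none of them called. Among members described one by one, the leave-out fits gave log2 fold changes of -0.186 to 0.0396 for Cct4, -0.185 to 0.0143 for Dnaja1, -0.106 to 0.00283 for Hsp90aa1, -0.0416 to 0.0774 for Hsf2, -0.0290 to 0.265 for Hspe1 and -0.00039 to 0.0469 for Tcp1; the cause was not tested. A lone library's spread comes from the other pair, and the wild-type libraries lay farther apart (chi-square per degree of freedom over members 7.31 against 2.32 in knockout).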

Other observations

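Replicate libraries of a genotype differed in chaperonin RNA. All 8 tested CCT genes were higher in wild-type replicate 2 than in replicate 1, with log2 differences of 0.04 to 0.23 (median 0.10), as were Hspd1 and Hspe1 (0.11 and 0.30) and all 6 prefoldin genes (0.08 to 0.21). Among all tested genes 47.6% were higher in replicate 2. Knockout replicate 2 was also above knockout replicate 1 for 6 of 8 CCT genes (median 0.02), for Hspd1 and Hspe1 (0.04 and 0.13) and for all 6 prefoldin genes (median 0.06), and for 50.5% of all tested genes. The replicates have no order, and what separates them was not tested. By level, 1 of 9 members of at least 500 CPM was called (11.1%), against 19.4% of all such genes. Between 50 and 500 CPM 4 of 30 members were called (13.3%), against 23.4%. Between 5 and 50 CPM it was 7 of 27 (25.9%), against 24.8%, and below 5 CPM 2 of 10 (20%), against 21.9%.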
